A study of Mus musculus with 28 samples.

Results

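The Foxd3 locus held 63 of the 162571 binding events in the 14 deposited event lists used here. Foxd3 (gene ID 15221) lies on mouse chromosome 4, 99656299 to 99658671 on mm10, is 2373 bp long and runs on the plus strand. An event belonged to the locus when it lay within 50 kb of either end of the gene, from 99606299 to 99708671. The locus was chosen by the number and sharing of its events in these lists, so its counts and scores are a description and no test is attached to them. Events of any list whose neighbours lay within 100 bp were joined into a place, and the 63 events made 18 places. The outermost event inside the window lay 47860 bp from the gene (anti-FLAG at 48 h, score 54), and the nearest outside lay 55110 bp away (combined FoxA1 list, score 201).

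The events were measured by ChIP-exo, in which an exonuclease trims immunoprecipitated DNA up to the crosslinked protein. The cells were mouse embryonic stem (ES) cells of the MC1 line (129S6/SvEvTac) with a transgene at the Rosa26 locus that doxycycline (Dox) keeps silent. Each transgene encoded 1 Forkhead factor with a C-terminal His6-FLAG tag, and Dox was washed out for the stated hours in differentiation medium with serum. Lists of FoxA1 (3 libraries), FoxC1, FoxL2 and FoxP3 (2 libraries each) at 24 h name only the factor and are called combined lists. All of these libraries used anti-FLAG except 1 of FoxA1, which used anti-FoxA1. In the same FoxA1 line, time courses at 0, 6, 12, 24 and 48 h after Dox removal had 1 library and 1 list per time with anti-FoxA1 and likewise with anti-FLAG, and the 0 h cells were the uninduced baseline. The 2 libraries of a line with no factor had no list used here, so the values stand without an empty control. The factors were overexpressed, the labels do not say whether each line is 1 clone, and the RNA or protein of Foxd3 itself was not measured.

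Foxd3 encodes a Forkhead transcription factor of the pluripotent epiblast, of ES cells and of the early neural crest. In the mouse embryo it is needed to keep the epiblast, and in neural crest it keeps progenitors multipotent and restrains some of their fates. Forkhead proteins share a winged-helix DNA-binding domain and bind closely related sites, and FoxA1 is known as a pioneer factor that can bind DNA within closed chromatin. Enhancers of developmental regulators such as Foxd3 often lie outside the gene, in the intergenic DNA around it.

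The bases upstream of the Foxd3 start are shown because the event nearest to the gene lay at their edge. This event, of the combined FoxA1 list, was at 99656021 and lay 278 bp before the start. It had a score of 77 and lay 28 bases outside the stretch below, which is RefSeq's sequence of the 250 bases before the start (GRCm38.p6, plus strand, chr4:99656049-99656298). The 50 bases in capitals are those closest to the event.

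Foxd3 promoter: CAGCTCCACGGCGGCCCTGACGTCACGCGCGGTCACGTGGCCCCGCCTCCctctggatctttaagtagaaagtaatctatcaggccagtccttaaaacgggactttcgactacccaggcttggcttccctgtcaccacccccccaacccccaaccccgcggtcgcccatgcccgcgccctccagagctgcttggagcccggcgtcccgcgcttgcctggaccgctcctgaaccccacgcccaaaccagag

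This stretch is 65.6% G and C, against a median of 55.6% over 21263 such stretches of protein-coding genes. Both strands were searched for 4 Forkhead motifs. The stretch held neither TGTTTAC (in 2.62% of all stretches) nor TGTTTGC (3.93%), and it held neither TATTTAC (2.37%) nor TATTTGC (2.23%). At least 1 of these was found in 10.4% of all stretches. The absence of these letters says nothing of the factor. A FoxA1 event within 300 bp upstream of a listed start was rare in general, with 280 of 17492 protein-coding genes (1.6%). The genome sequence under the stronger places described below was not part of the reference used here and is not shown.

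The lists differ in length, and with them the chance of an event anywhere. The combined lists held 32948 events for FoxA1, 7244 for FoxL2, 4385 for FoxP3 and 1112 for FoxC1, and the time-course lists held 15 to 41726. An event's score, given by the event caller, ran from 43 to 1000 with 1000 as a ceiling. Its scale is not given, so scores were set side by side as percentiles within their own list, with ties at the midpoint. The files hold no reads, so depth is unknown. No list has a replicate, so no spread between replicates can be given for any value here, and no difference between lists was tested. Shares are followed by their 95% interval by Wilson's method, which covers the counting error alone.

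All 4 factors had events near Foxd3. The combined FoxA1 list had 12, and an event within 50 kb was common in that list, with 73.4% of 21887 protein-coding genes having at least 1. FoxL2 had 4 events, with 30.9% of genes having any. FoxP3 had 4, with 20.6% of genes having any. FoxC1, whose list is short, had 2, with 7.26% of genes having any. Events of each of the 4 factors were near 698 genes (3.19%), Foxd3 among them.

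Events at the locus were called in most lists of the FoxA1 time courses. With anti-FoxA1 the 0 h list had 1 event (0.0731% of genes had any), the 6 h list 1 (0.576%), the 12 h list 6 (36.6%), the 24 h list 8 (73.5%) and the 48 h list 9 (76.6%). With anti-FLAG the 0 h list (0% of genes) and the 6 h list (0.0411%) had none, the 12 h list had 2 (9.81%), the 24 h list 8 (51.6%) and the 48 h list 6 (49.1%). The lists themselves lengthened over these times, and the counts were not corrected for that.

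The events lay mostly upstream, and none lay in the transcribed gene. Of the 63 events, 52 were upstream, 11 downstream and 0 between the gene's ends. Of the 18 places, 15 were upstream and 3 downstream, and their distances below run from the start of the gene. Foxd3 stands alone in a long stretch without protein-coding genes. Its upstream neighbour Atg4c, which encodes an autophagy protease, ends 359041 bp away, and its downstream neighbour Alg6, which encodes a glucosyltransferase of protein glycosylation, begins 56925 bp away. Within the window the annotation also places the pseudogene Gm12687, with no event of a combined list inside it. Of the combined FoxA1 events in the 418338 bp between Atg4c and Alg6, 12 of 21 lay in the Foxd3 window. So did 2 of 2 of FoxC1, 4 of 5 of FoxL2 and 4 of 5 of FoxP3. The window takes in 50 kb on either side of the gene and was chosen for its events, so these counts are a description. The 3 downstream places, with 11 events, also lay within 50 kb of Alg6.

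**Figure D1:**
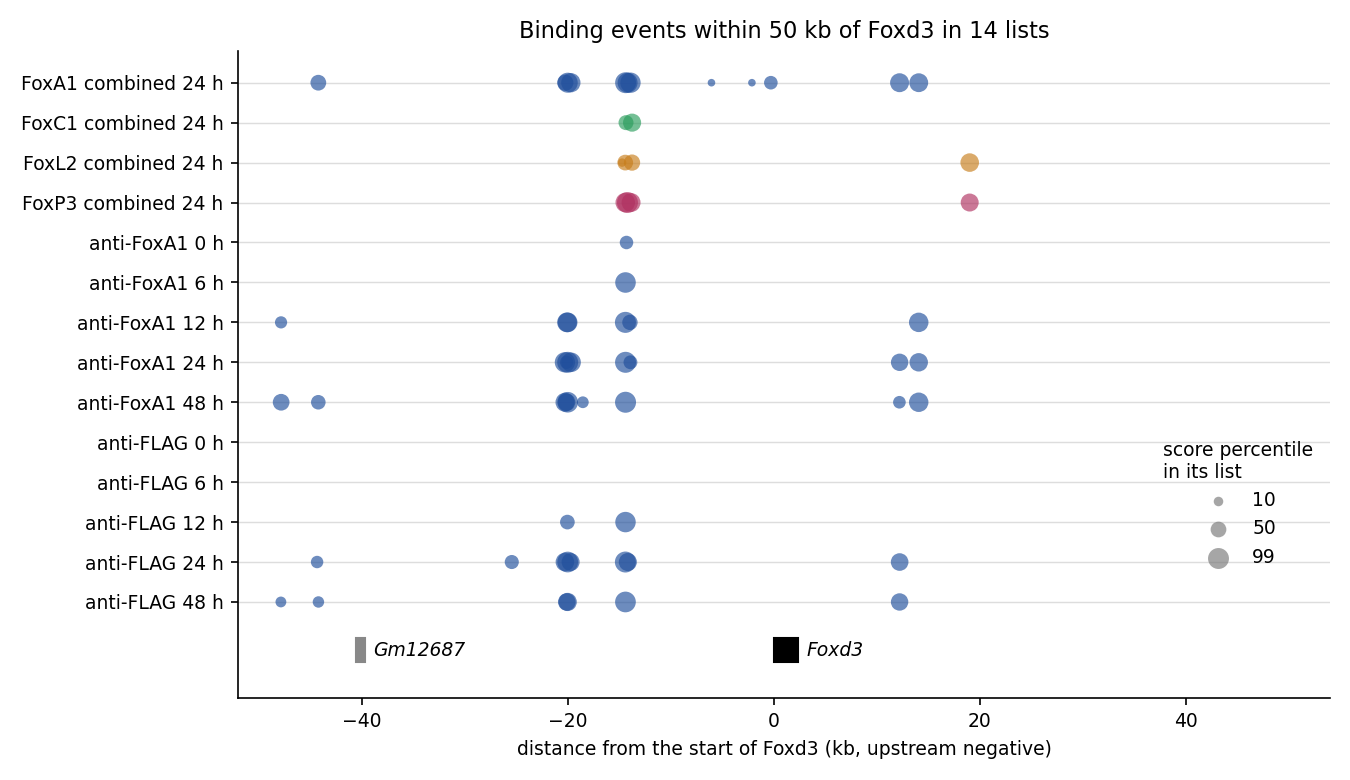
Positions of all 63 events by list (rows) against distance from the Foxd3 start in kb, upstream negative. Colour marks the factor and point size the score percentile within the list. Events of all 4 factors stack 14.4 kb upstream, FoxA1 events alone stack 20.0 kb upstream, and the anti-FLAG rows at 0 and 6 h are empty.

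The most shared place of the locus lay 14.4 kb upstream, at 99641880 to 99641954, and held 1 event in each of 12 of the 14 lists. The combined FoxA1 event was at 99641913 with a score of 1000, the ceiling that 1084 of 32948 FoxA1 events reached. The FoxP3 event was at 99641880 with a score of 202, at percentile 84.1 of its list. The FoxL2 event fell on the same base as that of FoxP3, with a score of 59 and percentile 50.01. The FoxC1 event was at 99641954 with a score of 64 and percentile 44.1. The place was thus near the top of the FoxA1 list and well above the middle of the FoxP3 list, and near the middle of the FoxL2 and FoxC1 lists. The FoxA1 event was 33 bp from those of FoxP3 and FoxL2 and 41 bp from that of FoxC1.

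Few places in the genome were called in as many lists. Over all 14 lists joined the same way there were 70233 places, and 2 of them (0.00285%), this one included, had events of at least 12 lists. None had more. Another 9 places had 11 lists, 51 had 10 and 35496 had 1. The 0 h and 6 h lists held only 15 and 86 events with anti-FoxA1 and 20 and 17 with anti-FLAG. A place could thus reach 12 lists only with events in some of these short lists, which few places had. Of the 14 lists, 11 were of FoxA1, so the number of lists is not a number of factors. The locus was chosen for the sharing of its events, so its standing here is a description. Joining within 50 bp or 250 bp left the number of lists at 12. The event positions in the 9 FoxA1 lists that called the place lay within 23 bp of each other, from 99641894 to 99641917. Such a spread was usual. Over the 7 FoxA1 lists from 12 h on it was 19 bp here, against a median of 20 bp at 793 places of the genome.

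The place 14.4 kb upstream was the first part of a dense cluster. Between 99641580 and 99642544, a span of 964 bp, lay 22 events of 12 lists. The combined lists had 3 events of FoxA1, 3 of FoxP3, 3 of FoxL2 and 2 of FoxC1 there. The FoxA1 and FoxP3 events each followed one another by no more than 500 bp. Stretches with 3 or more such events took in 3.13% (2.95–3.33) of all FoxA1 events and 2.37% (1.96–2.87) of all FoxP3 events. The FoxL2 events of the cluster were spaced more widely and made no such stretch.

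The factors did not all have their highest score at the same point of this cluster, though those of FoxC1 and FoxL2 lay 5 bp apart. FoxA1 peaked at the place 14.4 kb upstream, with scores of 455 at 99642109 and 609 at 99642388 farther along. FoxP3 scored 881 at 99642097, which 36 of its 4385 events reached, against 202 and 166 at its other events of the cluster. FoxC1 scored 103 at 99642544 and 64 at the place 14.4 kb upstream. FoxL2 scored 63 at 99642539, 59 at the place 14.4 kb upstream and 44 at 99641580, the last at percentile 5.02 of its list. Scores of different lists share no known scale, so only the order within each factor can be read here.

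The place 14.2 kb upstream held FoxA1 and FoxP3 without the others. The FoxP3 event at 99642097 and the FoxA1 event at 99642109 lay 12 bp apart. The nearest FoxC1 event was 143 bp from that of FoxP3 and the nearest FoxL2 event 217 bp. Of the time-course lists, the anti-FLAG list at 24 h alone had an event there, with a score of 163.

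The place 13.9 kb upstream counted as shared by all 4 factors only through a chain of neighbours. It ran from 99642336 to 99642544, a span of 208 bp. FoxL2 and FoxC1 lay 5 bp apart, FoxP3 lay 94 bp from FoxL2 and 99 bp from FoxC1, and FoxA1 lay 57 bp from FoxP3 but 151 bp from FoxL2 and 156 bp from FoxC1. Among the combined lists, 108 of the 128 places of all 4 factors spanned at most 100 bp, with a median span of 51.5 bp. The place 14.4 kb upstream, at 74 bp, was among these, and the place 13.9 kb upstream, at 156 bp in the combined lists, was not.

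Foxd3 was 1 of 7 protein-coding genes with at least 2 places of all 4 factors within 50 kb, where 226 genes (1.03%) had at least 1. The others were Nanog, the homeobox factor of naive pluripotency, its neighbour Slc2a3, Ywhaq, Gnal, Impa2 and Mppe1. Neighbouring genes can count the same place, so these genes are not independent of each other. Joined within 50 bp, Foxd3 had 1 place of all 4 factors, and it had 1 when the anti-FLAG list of 24 h stood in for the combined FoxA1 list.

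**Figure D2:**
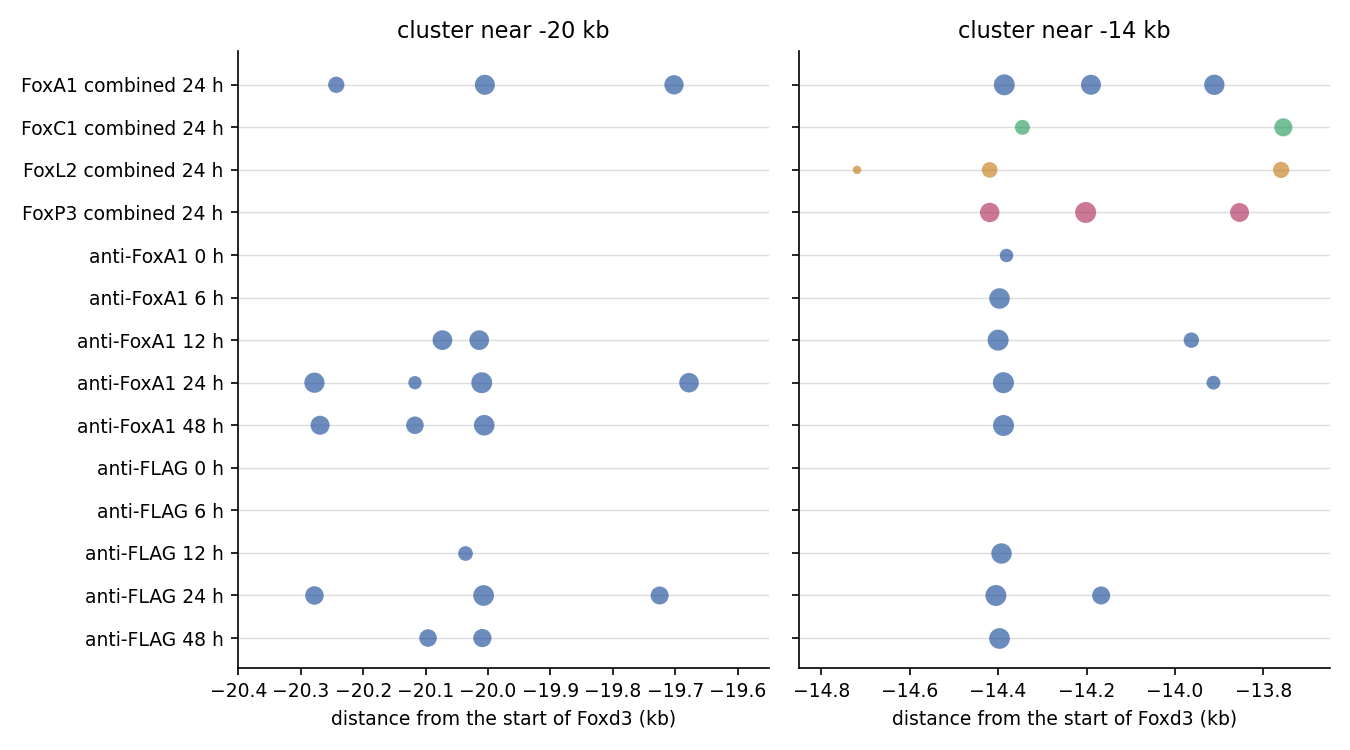
Events in the clusters near 20.0 kb (left) and 14.4 kb (right) upstream of Foxd3, by list, against distance from the gene start in kb; colour marks the factor and point size the score percentile in the list. In the right panel the FoxA1 events of 9 lists at the place 14.4 kb upstream lie within 23 bp of each other. The left panel holds no event of FoxC1, FoxL2 or FoxP3.

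The place 14.4 kb upstream was called with anti-FoxA1 at every time, the 0 h list included. It scored 51 in the 0 h list and 200 in the 6 h list, and it scored 1000 in each of the 12, 24 and 48 h lists. At 0 h, 9 of the 15 events scored higher, and at 6 h, 4 of the 86 events did. At 12 h it was 1 of 19 events at the ceiling among 8345. The event thus stood in the lower part of a very short list at 0 h and near the top of the lists from 6 h on.

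The anti-FLAG course found the same place from 12 h on. It scored 298 in the 12 h list, which 105 of 1656 events reached, 1000 in the 24 h list and 664 in the 48 h list. The anti-FLAG lists at 0 h and 6 h had no event at the locus. These lists held 20 and 17 events, and at such lengths a missing event says little about binding.

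The 15 anti-FoxA1 events at 0 h, before Dox was removed, were all called again in later anti-FoxA1 lists. All 15 had an event within 100 bp at 12 h and at 24 h, 14 had one at 48 h, and 6 (40%, 19.8–64.3) had one at 6 h. The event at Foxd3 was 1 of 6 found in all 4 later anti-FoxA1 lists. It was also the 1 event of the 15 with all 4 combined lists within 100 bp, while 14 had at least 1 combined list. Over the genome, 6 places had anti-FoxA1 events at all 5 times, and 1 of these had all 4 factors, the one at Foxd3. What the 0 h events represent was not tested, and the empty control line, which has no list used here, gives no value for them.

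The cluster 20.0 kb upstream was called for FoxA1 and for no other factor. It spanned 600 bp from 99636021 to 99636621 and held 18 events of 7 lists, all of FoxA1. The combined FoxA1 list had scores of 119, 471 and 301 at its 3 places. At the middle place, 20.0 kb upstream, all 6 time-course lists from 12 h on had an event. The nearest FoxL2 event was 4983 bp from the FoxA1 event at 99636597 and the nearest FoxP3 event 5283 bp.

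A FoxA1 event of that strength without a partner was usual. Of the 3492 combined FoxA1 events that scored at least 471, 2632 (75.4%, 73.9–76.8) had no FoxC1, FoxL2 or FoxP3 event within 100 bp. At the place 14.4 kb upstream the FoxA1 event had all 3 other factors within 100 bp. Of the 1084 FoxA1 events at the ceiling, 36 (3.32%, 2.41–4.56) had the same. This place was singled out as the most shared of a locus chosen for its sharing, so the share is a description and tests nothing.

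At the place 20.0 kb upstream the highest anti-FoxA1 score was 173 in the 12 h list, 889 in the 24 h list and 516 in the 48 h list. The highest anti-FLAG score was 64 in the 12 h list, 736 in the 24 h list and 163 in the 48 h list, and neither antibody had an event before 12 h. In percentiles of their lists, these were 86.2, 98.7 and 95.2 with anti-FoxA1 and 41.7, 96.8 and 71.8 with anti-FLAG. With both antibodies the 24 h event stood highest in its list and the 48 h event stood lower. Each time has 1 library per antibody, so whether this exceeds the spread between libraries is unknown. A percentile also depends on how many weaker events a list holds, and the lists differ in length. At 12, 24 and 48 h they held 8345, 35134 and 41726 events with anti-FoxA1. With anti-FLAG they held 1656, 15984 and 13899.

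The flanking places of this cluster were first called at 24 h. The 12 h lists were shorter, with 8345 events against 35134 for anti-FoxA1 and 1656 against 15984 for anti-FLAG. A missing call at 12 h thus says little about binding. The place 20.3 kb upstream was first called at 24 h with both antibodies, with scores of 361 for anti-FoxA1 and 191 for anti-FLAG on the same base, 99636021. At 48 h it was found with anti-FoxA1 (score 199) and not with anti-FLAG. The place 19.7 kb upstream was called at 24 h alone, with scores of 242 for anti-FoxA1 and 162 for anti-FLAG.

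**Figure D3:**
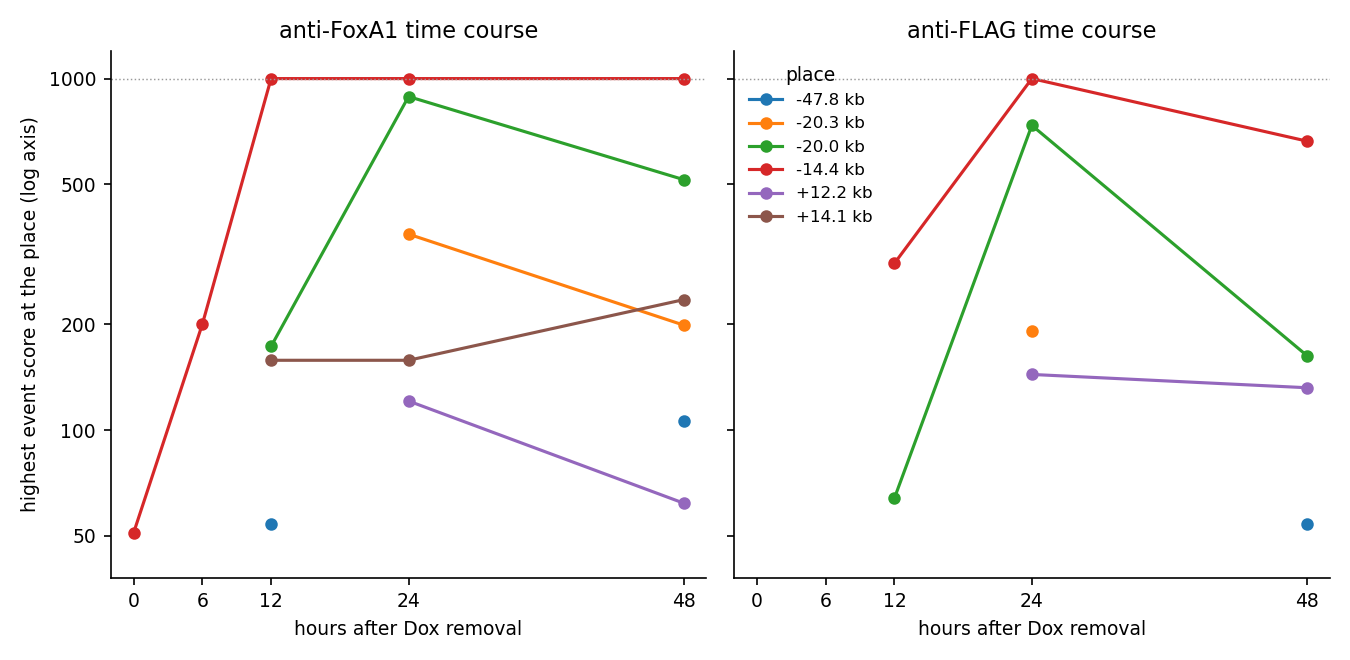
Highest event score (log axis, ceiling 1000 dotted) at each place against hours after Dox removal, for the places found in at least 3 time-course lists; a missing point means no event. The place 14.4 kb upstream is the only one of these with points before 12 h. With both antibodies the place 20.0 kb upstream has its own highest score at 24 h, though scores of different lists share no known scale.

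By time of first call, 5 of the 18 places were present by 12 h with anti-FoxA1. These were the places 14.4, 20.0, 13.9 and 47.8 kb upstream and the place 14.1 kb downstream. The last was called at 12, 24 and 48 h on the same base, 99670382, with scores of 158, 158 and 235, and never with anti-FLAG. By 12 h the anti-FLAG list had 2 places, 14.4 and 20.0 kb upstream. The place 12.2 kb downstream was in the 24 h and 48 h lists of both antibodies and in no earlier list, with scores of 121 and 62 for anti-FoxA1 and of 144 and 132 for anti-FLAG.

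Near the gene itself FoxA1 events were weak and came from a single list. The places 6.0 and 2.1 kb upstream, both of the combined FoxA1 list, scored 43, the lowest score any event had. The event 278 bp before the start, described with the promoter sequence, was at percentile 34.1. None of these 3 had an event of any time-course list or other factor within 100 bp. In all, 7 of the 18 places were in 1 list and 11 in at least 2.

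The remaining upstream places were also of FoxA1. The place 44.2 kb upstream had scores of 106 in the combined list (percentile 50.2), 75 with anti-FoxA1 at 48 h (percentile 40.9) and 56 with anti-FLAG at 48 h (percentile 20.2). The place 47.8 kb upstream had scores of 54 at 12 h (percentile 24.9) and 106 at 48 h (percentile 58.2) with anti-FoxA1, and 54 with anti-FLAG at 48 h (percentile 16.7). These events thus stood near the middle of their lists or below it. Events of 1 list alone lay 44.3 kb (anti-FLAG at 24 h, score 61), 25.4 kb (anti-FLAG at 24 h, score 73) and 18.5 kb (anti-FoxA1 at 48 h, score 57) upstream.

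FoxA1 was missing from 2 of the 18 places. The place 19034 bp downstream of the start held FoxP3 at 99675332 (score 126, percentile 69.5) and FoxL2 at 99675333 (score 94, percentile 75.01), 1 bp apart, and none of the 11 FoxA1 lists had an event within 100 bp. The other was the lone FoxL2 event at 99641580, 333 bp from the nearest combined FoxA1 event. Of the 4 FoxL2 events at this locus, 3 lay within 100 bp of a FoxP3 event, where 9.14% (8.50–9.82) of all FoxL2 events did. On a single shared base lay 1 of the 4, where 2.25% of all FoxL2 events had FoxP3 on the same base. The locus was chosen for the sharing of its events, so these shares describe it and test nothing.

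The antibodies found overlapping sets of FoxA1 events at the locus. Of the anti-FLAG events, 2 of 2 in the 12 h list, 5 of 8 in the 24 h list and 6 of 6 in the 48 h list had an anti-FoxA1 event of the same time within 100 bp, where the whole anti-FLAG lists had 90.3% (88.8–91.7), 86.0% (85.4–86.5) and 90.2% (89.7–90.7). At 24 h the anti-FLAG events without a partner were those 44.3, 25.4 and 14.2 kb upstream. The events at the locus are too few to set these shares apart from those of the whole lists. Of the 12 combined FoxA1 events, 7 had an event of the anti-FoxA1 list of 24 h within 100 bp, where 54.8% (54.3–55.4) of the whole combined list did. For the anti-FLAG list of 24 h it was 6 of the 12, where 33.0% (32.5–33.5) of the whole combined list did.

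Among all 21887 protein-coding genes, Foxd3 stood high by the number of events in every combined list. It was at percentile 99.1 for FoxA1, where 160 genes had more than its 12 events and the mean was 2.42. For FoxP3 it was at percentile 99.5 (62 genes had more), for FoxC1 at 99.4 (60 genes) and for FoxL2 at 99.2 (96 genes). In the time courses it was at percentile 99.6 with anti-FoxA1 at 12 h, 93.7 at 24 h and 92.9 at 48 h, and at 99.03, 99.4 and 98.99 with anti-FLAG at these times. The gene was picked for its events, so these ranks describe it and test nothing.

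The number of events also reflects list length. Each combined list was limited to its highest scores, as many as the 1112 events of the shortest list plus ties at the lowest score kept. The locus then held 1 FoxA1 event, 2 FoxC1 events, 0 FoxL2 events and 3 FoxP3 events. The FoxC1 list is the shortest and was kept whole. The share of all genes with an event in the limited lists was not computed, so whether these counts are high is unknown.

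**Figure D4:**
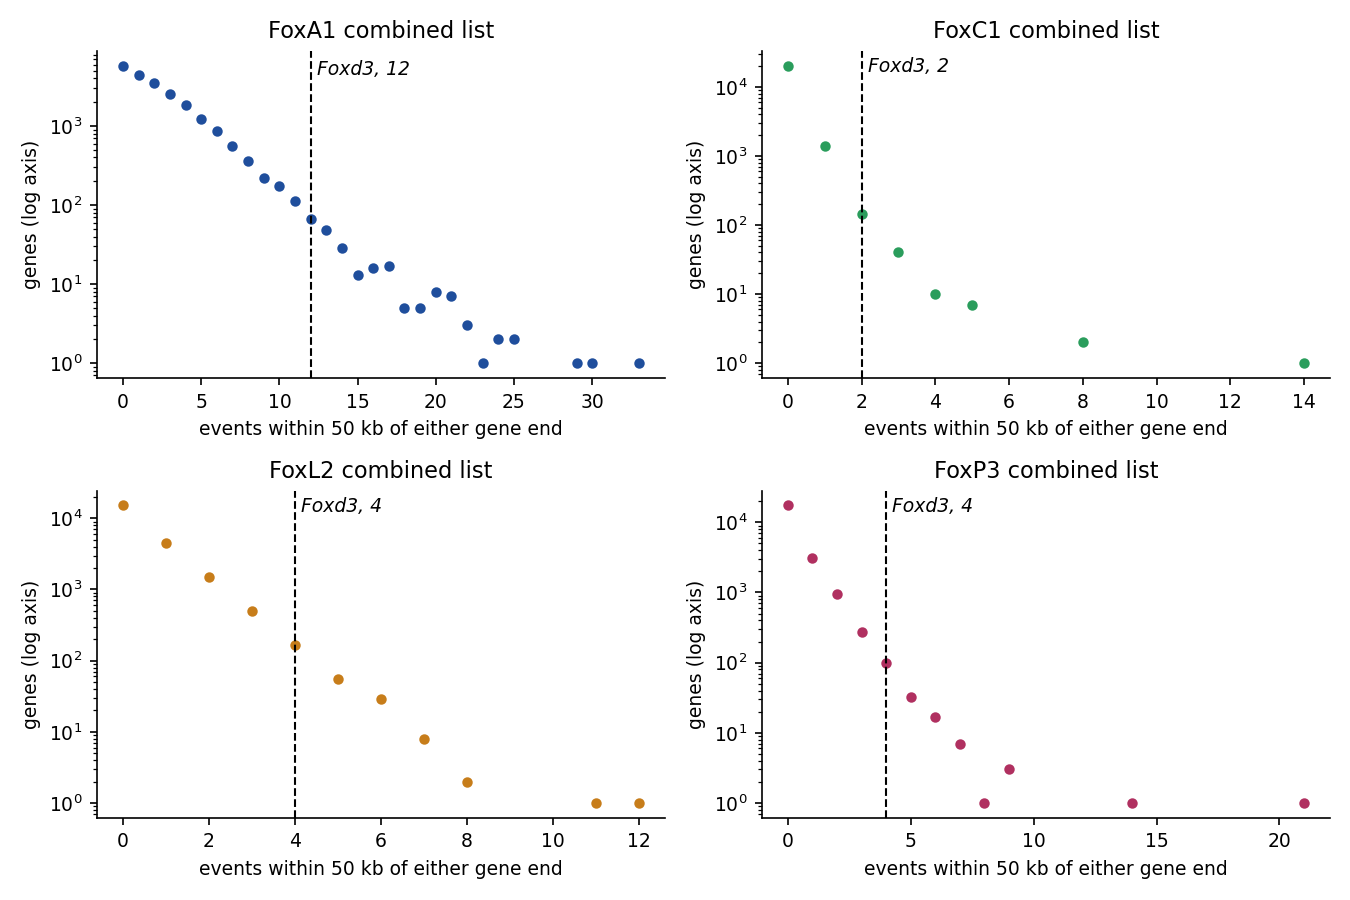
Number of protein-coding genes (log axis) by the number of events within 50 kb of either gene end, for each combined list; the dashed line marks Foxd3. Foxd3 sits in the tail of each list, at 12 events for FoxA1, 2 for FoxC1, 4 for FoxL2 and 4 for FoxP3.

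The genes most like Foxd3 were found by the sum over the 14 lists of the absolute difference of log2(events + 1), leaving out genes within 500 kb. Kcnk16, which encodes a potassium channel, was nearest at 2.93, against a median of 22.21 over 21880 genes. It had 10 events of FoxA1, 1 of FoxC1, 5 of FoxL2, 4 of FoxP3 and 1 with anti-FoxA1 at 6 h. Fnbp1 followed at 4.79, Zfp936 at 4.97, Ndfip1 at 5.15 and Got1l1 at 5.17. With anti-FoxA1 at 6 h, Ndfip1 also had 1 event and Got1l1 had 2, where 0.576% of all genes had any. The genes were matched on these counts, so such likeness is built in. Of these 5 genes, Kcnk16 had a place of all 4 factors (1.03% of all genes) and none had a 0 h event, which 0.0731% of all genes had with anti-FoxA1, so its absence is what the background gives. The measure compares counts alone, and says nothing of shared function or control.

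The other FoxD genes had fewer events than Foxd3, which was chosen for its events. Foxd1 had 2 combined FoxA1 events, Foxd2 had 3 and Foxd4 had 3, against 12 at Foxd3. The median over all genes was 2 in that list. Foxd4 had 1 FoxP3 event (20.6% of all genes had any). None of the 3 had an event of FoxC1 (7.26% of all genes) or FoxL2 (30.9%), and 3 genes are too few to set this apart from those shares. Foxd1 and Foxd2 are known from kidney stroma and from mesenchyme of the head and kidney. At 48 h with anti-FoxA1 the events numbered 3 at Foxd1, 1 at Foxd2 and 1 at Foxd4, against 9 at Foxd3. There too the median over all genes was 2. Where all 4 FoxD genes had a combined FoxA1 event, 73.4% of all genes did, so this presence is near the background.

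**Figure D5:**
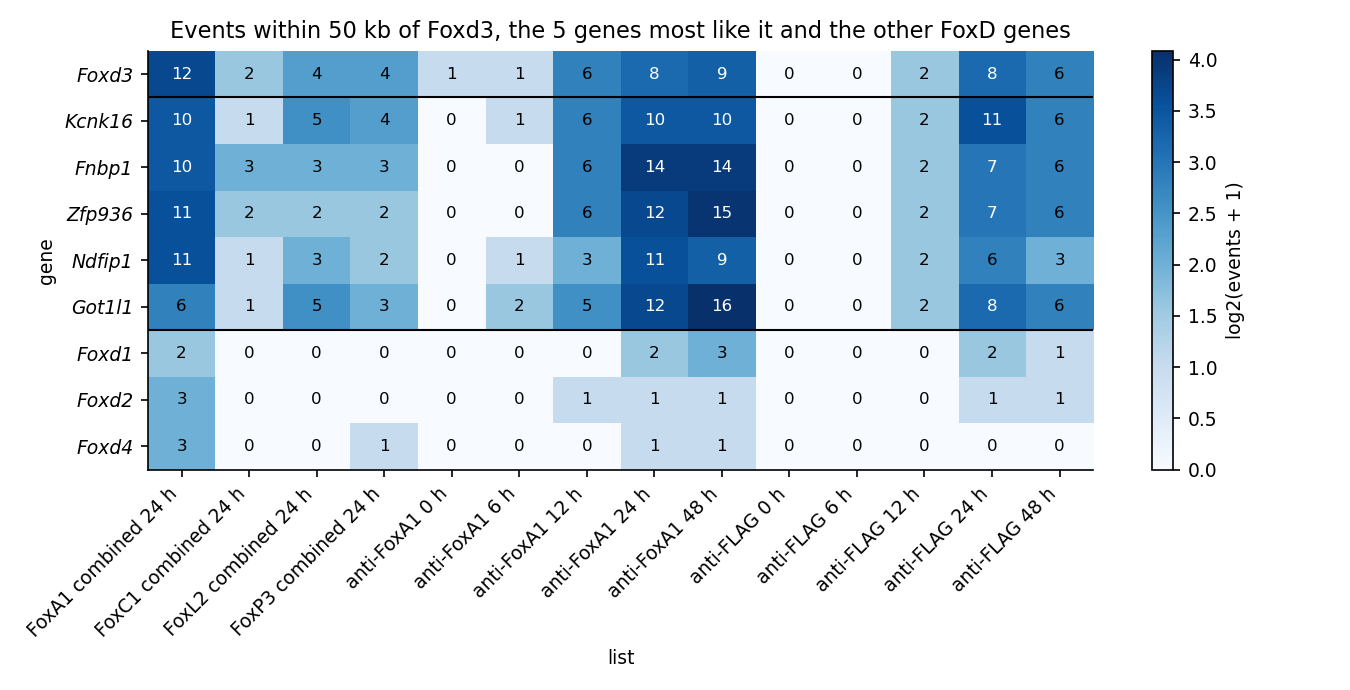
Number of events within 50 kb (numbers in the cells, colour on a log2(events + 1) scale) for Foxd3, the 5 genes whose counts were most like it and the other FoxD genes, in each of the 14 lists. Foxd3 has 1 event at 0 h, where 0.0731% of all genes have any. The 3 other FoxD genes have 0 events of FoxC1 and FoxL2, where 7.26% and 30.9% of all genes have any.

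Genes of the ES cell network and of the exit from naive pluripotency, in which Foxd3 acts, were counted in the same way. Of 16 such genes, 16 had a combined FoxA1 event (73.4% of all genes), 13 a FoxP3 event (20.6%), 12 a FoxL2 event (30.9%) and 6 a FoxC1 event (7.26%). The median number of FoxA1 events was 7, against 2 over all genes. Events of each of the 4 factors were near 4 of the 16 (3.19% of all genes). These genes were listed with earlier results of these data known, so the shares describe them and test nothing. Otx2, a homeobox factor of the primed epiblast, had 8 events of FoxA1, 5 of FoxC1, 12 of FoxL2 and 5 of FoxP3. Nanog had 6, 4, 2 and 6 in the same order, Prdm14, a regulator of naive pluripotency and germ cells, had 12, 2, 2 and 3, and Tbx3, a T-box factor of naive cells, had 6, 1, 2 and 3. None of the 16 had an event at 0 h or 6 h in either time course, where at most 0.576% of all genes had one in any of these lists.

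Regulators of the neural crest, the other tissue of Foxd3, had fewer. Of 20 such genes, 17 had a combined FoxA1 event (73.4% of all genes), 7 a FoxP3 event (20.6%), 7 a FoxL2 event (30.9%) and 4 a FoxC1 event (7.26%), and the median number of FoxA1 events was 2, as over all genes. Erbb3, a neuregulin receptor of crest-derived glia, had 5 events of FoxA1 and 4 of each other factor. Tfap2a, an early crest regulator, had 3 events of FoxA1, 1 of FoxC1, 1 of FoxL2 and 2 of FoxP3. These were the 2 of 20 with all 4 factors (3.19% of all genes). Sox10, whose product marks crest and glial progenitors, had 1 event of FoxA1 and 1 of FoxC1. Both gene lists are small and were chosen with earlier results of these data known. They were read beside the background without a test, and the difference between them was not tested.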

How the data were processed

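The 14 lists hold ChIP-exo binding events that ChExMix called, per the file headers. The submitters' processing notes name the aligner BWA (0.7.17-r1188), Picard, SAMtools and the mm10 build. The caller's version, controls and thresholds, and the way libraries were joined into a list, are not stated in any source used. Each deposited event has 1 value, a score between 43 and 1000. A few items of the series are left unreported.

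Groups were read from sample titles. Gene positions and the promoter came from RefSeq tables of GRCm38.p6, the same build as mm10. With Python 3.11.15, pandas 2.3.3 and scipy 1.17.1, events within 50 kb of either end of each of 21887 protein-coding genes were counted, events were joined within 100 bp, and scores were ranked within lists. The functions were tested on simulated data. No test was run, since no list has a replicate. The named genes were Foxd3, its neighbours, the 5 genes most alike in counts, and members of 3 gene lists with all 4 factors. Other genes named were chosen after their values were seen. The locus, gene lists and named-gene rule were chosen with earlier results of these data known. Alternatives covered windows, joining distances, score limits, the 0 h events, gene types and the FoxA1 list used.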

Additional observations from a re-analysis of the deposited data

How the results depend on the processing

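Of 64 recomputed values behind the main statements, 47 stayed within 1.5 times the reported count or within the interval of the reported percentile, and 17 moved. None had a direction to reverse. Limiting each combined list to its highest scores left 6 of the 22 combined events, and a 20 kb window left 21 of the 41 time-course events. Keeping only events at or above each list's median score left 11 of 18 places. Places of all 4 factors numbered 1 in place of 2 when joined within 50 bp, 1 at or above the median score and 1 with the anti-FLAG list at 24 h for FoxA1. With a 20 kb window 1 FoxD gene had a FoxP3 event, Foxd3 itself. The percentile of Foxd3 among genes with windows of 20 kb and 100 kb was 99.7 and 99.3 for FoxA1, 99.8 and 98.6 for FoxC1, 99.8 and 98.8 for FoxL2, and 99.9 and 98.6 for FoxP3. Among genes of all types it was 99.3 for FoxA1 and 99.4 for FoxL2. The place 14.4 kb upstream held events of 12 lists when joined within 50 bp or 250 bp and of 10 lists at or above the median score, alternatives chosen after seeing the data. No paired analysis was possible because each list stands alone and the combined lists cannot be split by replicate, and for the same reason no replicate could be left out. Unknown depth limits every statement about a missing event.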

Other observations

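The other place called in 12 of the 14 lists lay on chromosome 11, 106725935 to 106726060, 10654 bp from Pecam1, which encodes an adhesion molecule of endothelial cells that ES cells also carry. It was singled out after its values were seen. All 4 factors were called there, and the lists without an event were those at 0 h with anti-FoxA1 and with anti-FLAG. At Foxd3 the lists without an event were those of anti-FLAG at 0 h and 6 h.

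The positions of the FoxA1 event 14.4 kb upstream of Foxd3 varied over 19 bp across the 7 FoxA1 lists from 12 h on. At 793 places of the genome with 1 event in each of these 7 lists, the median range was 20 bp (quartiles 11 and 43 bp), and 388 of them had a range as small as that at Foxd3 or smaller.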
